A study of Homo sapiens with 54 samples.

Results

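PARP1 and 9 other genes of NAD and poly(ADP-ribose) metabolism were followed across 18 groups of A549 cells, a line established from a human lung adenocarcinoma. The 10 genes were PARP1, PARP2, PARG, NAMPT, NAPRT, NMNAT1, NMNAT3, NADK, SIRT1 and NNMT, taken from the 58870 rows of the count table by their symbols. The cells carried either an insertless vector (empty-vector cells, labelled E_V) or a USP18 expression vector (USP18 cells, labelled USP18_O_E). The vector's promoter and the number of independently engineered populations are not given in the sources used here. Each population was harvested after 48 hours of vehicle (DMSO) or of a compound that the labels give only by a code, which was CP2 at 2 or 5 µM, CP14 at 1, 2.5 or 5 µM, or CP18 at 1, 2.5 or 5 µM. Every group held 3 libraries, 54 in all. USP18 removes the ubiquitin-like modifier ISG15 from proteins, and the study sought small molecules that inhibit it. Its methods name β-lapachone, a natural quinone, as the treatment for this RNA-seq, and the sources used here do not say which code stands for it. The study's legends for its RNA-seq figures give β-lapachone at 2.5 µM, a dose that the labels hold for CP14 and CP18 but not for CP2.

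NAD is both a redox carrier and a substrate that some enzymes consume. PARP1 and PARP2 split NAD to build poly(ADP-ribose) chains at DNA breaks, PARG trims these chains, and SIRT1 uses NAD to remove acetyl groups from proteins, and the splitting of NAD releases nicotinamide. NAMPT returns nicotinamide to NAD through nicotinamide mononucleotide, NAPRT starts from nicotinic acid, the NMNAT enzymes act in both routes and make NAD from nicotinamide mononucleotide, NADK phosphorylates NAD to NADP, and NNMT methylates nicotinamide and so takes it out of the cycle.

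Promoter sequence is shown for PARP1, which had the highest level per kilobase, and for NAMPT and NMNAT1, which differed most between the vectors. Each line gives the 250 bases before the RefSeq start (GRCh38.p14), read 5′ to 3′ along the gene. The windows lie at chr1:226408094-226408343 on the minus strand for PARP1, chr7:106284984-106285233 on the minus strand for NAMPT and chr1:9943225-9943474 on the plus strand for NMNAT1. The GENCODE spans given below begin farther upstream, so that the NAMPT window lies wholly and the PARP1 and NMNAT1 windows partly inside them. Capitals mark matches, on either strand, to a GC box (GGGCGG), the CCAAT box (these 5 letters), an E2F motif (TTTNNCGC), an antioxidant response element (TGACNNNGC) or an interferon-stimulated response element (TTTC, any 2 bases, TTTC).
PARP1: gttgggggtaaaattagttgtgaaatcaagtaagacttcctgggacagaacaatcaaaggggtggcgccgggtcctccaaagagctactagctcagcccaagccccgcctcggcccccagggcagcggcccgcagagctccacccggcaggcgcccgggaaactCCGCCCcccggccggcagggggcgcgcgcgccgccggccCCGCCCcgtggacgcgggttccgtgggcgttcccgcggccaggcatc
NAMPT: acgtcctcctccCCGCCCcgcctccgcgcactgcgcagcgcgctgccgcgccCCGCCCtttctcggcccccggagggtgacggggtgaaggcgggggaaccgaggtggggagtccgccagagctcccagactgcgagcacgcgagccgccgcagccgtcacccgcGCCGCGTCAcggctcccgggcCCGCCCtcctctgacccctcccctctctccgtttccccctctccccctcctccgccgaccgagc
NMNAT1: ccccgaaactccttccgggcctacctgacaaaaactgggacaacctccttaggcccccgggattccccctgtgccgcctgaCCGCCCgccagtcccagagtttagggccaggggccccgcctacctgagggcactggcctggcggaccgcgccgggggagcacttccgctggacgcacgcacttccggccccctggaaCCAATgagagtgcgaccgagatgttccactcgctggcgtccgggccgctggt

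The PARP1 window held 2 GC boxes, the NAMPT window 3 GC boxes and 1 match to the antioxidant response element, and the NMNAT1 window 1 GC box and 1 CCAAT box. Among 35116 RefSeq windows of this length, 42.6% held a GC box, 32% a CCAAT box and 10.9% the antioxidant response element. None of the 3 printed windows held these letters of the interferon-stimulated response element, which 3.02% of windows held, or of the E2F motif, which 5.92% held. The motifs were chosen after the expression values were known, and a match describes letters only. Of the 10 genes, 8 had a window in the RefSeq table, all but NAPRT and NNMT.

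The 10 genes lie on 7 chromosomes in GRCh38 (GENCODE v44). PARP1 (ENSG00000143799.13) spans chr1:226360210-226408154 on the minus strand in 23 exons. NAMPT (ENSG00000105835.12) spans chr7:106248298-106285966 on the minus strand in 11 exons. NMNAT1 (ENSG00000173614.14) spans chr1:9943428-9985501 on the plus strand in 5 exons, and NNMT (ENSG00000166741.7) spans chr11:114257787-114313536 on the plus strand in 3 exons. PARP2, PARG, NAMPT, NAPRT, NMNAT1, NMNAT3 and NNMT are each overlapped, introns included, by 1 to 4 annotated genes on the opposite strand, and NMNAT1 and NMNAT3 also by 4 and 3 on the same strand. The study's methods name a stranded library preparation. Whether counting used strand is not given in the sources used here, and without it reads from exons shared by opposite genes cannot be told apart. The estimated counts of PARP1, PARP2, NAPRT, NADK, SIRT1 and NNMT were exactly whole, as deposited, in 54 of 54 libraries. PARG in 54 libraries, NAMPT in 51, NMNAT3 in 24 and NMNAT1 in 3 had estimated counts that were not whole, which arise when reads are shared between loci, and their levels are uncertain to the extent that such reads were split. The pseudogenes PARGP1 and NAMPTP1 held at most 45.1 and 114 counts per library.

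The libraries held 16673228 to 25609062 counts each, with a median of 19701304. USP18 itself stood at 10.8 ± 0.31 CPM (counts relative to library size, after scaling by trimmed mean of M values) in vehicle-treated empty-vector cells and at 1316 ± 18 CPM in USP18 cells (SD, n = 3). In USP18 cells it reached 2041 ± 82 CPM at 5 µM CP14 and stood at 988 to 1316 CPM in the means of the other groups. The epithelial keratins KRT8 and KRT18 had medians of 3866 and 3623 CPM over all libraries, and the epithelial genes CDH1, KRT19 and EPCAM had medians of 78.9, 15.6 and 3.61 CPM. Of the immune markers reported here, CD3E was at 0 in 54 libraries and PTPRC in 38, and CD14 ranged from 0.0495 to 4.03 CPM. Of the endothelial markers, PECAM1, VWF and CDH5 were at 0 in 9, 25 and 32 libraries. Of the fibroblast markers, DCN was at 0 in 44 libraries and COL1A2 in 40, whereas COL1A1 ranged from 3.69 to 14.1 and COL3A1 from 0.149 to 3.86 CPM, at 0 in none. Counts on mitochondrial genes were 2.15 to 4.00% of each library. The study describes independent biological replicates for its experiments in general, and neither the labels nor its RNA-seq methods say that these replicates were separate cultures, so p-values measure the spread between these samples, which may be technical.

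Levels of the members were compared with each other per kilobase of the canonical transcript. In vehicle-treated empty-vector cells PARP1 stood at 64.4 CPM per kilobase and NAMPT at 59.1, followed by NNMT at 29.1, PARP2 at 23.2, NADK at 18.5, SIRT1 at 13.0, PARG at 12.0, NAPRT at 4.46, NMNAT1 at 2.16 and NMNAT3 at 1.14. In vehicle-treated USP18 cells PARP1 was at 68.4 CPM per kilobase and NAMPT at 21.0, below NNMT at 30.1 and PARP2 at 26.3. NMNAT3 rested on 31 to 70 counts per library and NMNAT1 on 64 to 228, against 3492 to 6965 for PARP1, so that the low genes were measured less precisely.

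**Figure D1:**
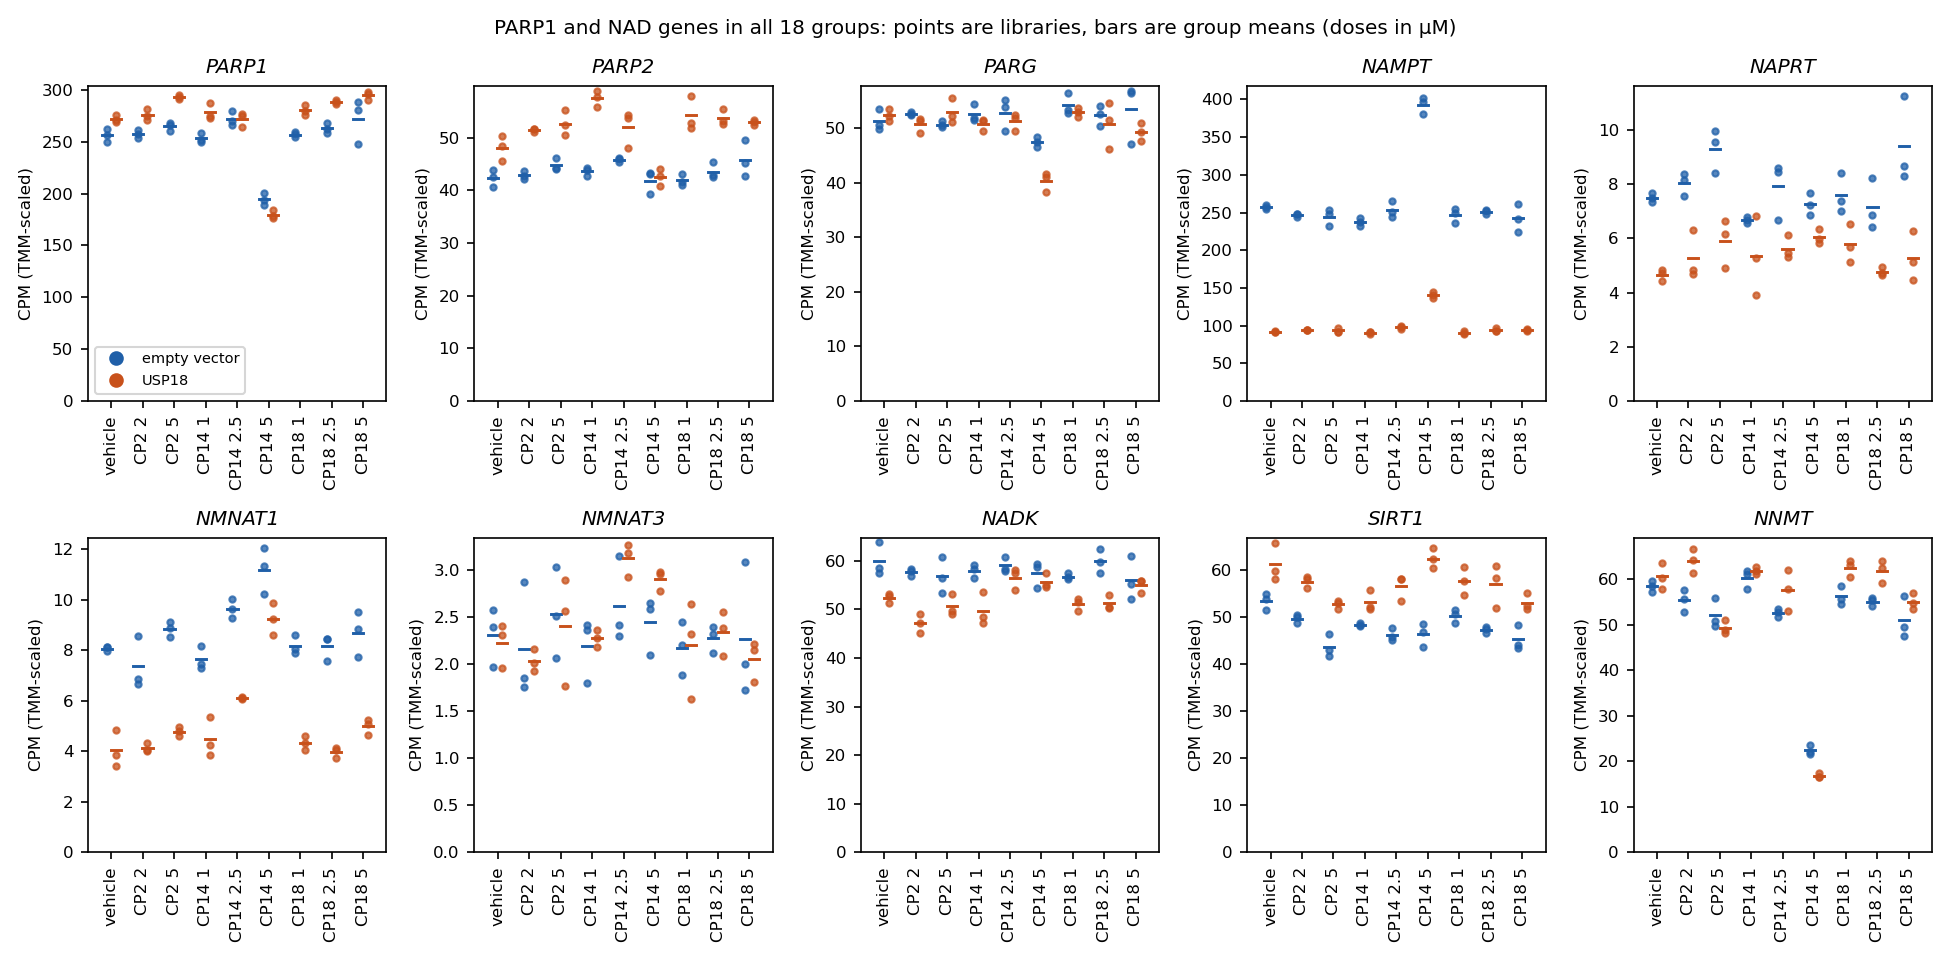
Level of each gene in CPM (y axis) in all 18 groups (x axis), with a point for each library, a bar for the mean of 3, and color for the vector. NAMPT lay at 88.7 to 144 CPM in USP18 libraries and at 224 to 402 CPM in empty-vector libraries, and NNMT had means of 16.8 and 22.5 CPM at 5 µM CP14.

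The first comparison asked how the genes differed between the vectors without compound. NAMPT, the rate-limiting enzyme of the nicotinamide route, was 2.83-fold lower in USP18 cells, and NMNAT1, the nuclear adenylyltransferase, was 2.01-fold lower. NAPRT, the first enzyme of the nicotinic acid route, and the kinase NADK were lower as well, while PARP1, PARP2 and SIRT1 were higher by at most 1.14-fold. Thus 7 of 10 genes passed the test (edgeR quasi-likelihood test, Benjamini-Hochberg adjusted p below 0.05 over all genes), 3 higher and 4 lower, where 57.6% of all 15252 genes tested passed, 29% higher and 28.7% lower. The study's stricter rule, which adds an absolute log2 fold change above 1, was met by 2 of the 10, NAMPT and NMNAT1, and by 10.1% of all genes. The median log2 fold change was -0.02 over the 10 genes and -0.01 over all genes.

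NAMPT was 260, 258 and 255 CPM in the vehicle-treated empty-vector libraries, against 93.1, 91.3 and 90.9 CPM in the USP18 libraries. The groups did not overlap, and the log2 fold change was -1.50 ± 0.03 (SE, edgeR adjusted p = 4.62e-18). NMNAT1 was 7.96, 8.12 and 8.14 CPM against 3.41, 4.86 and 3.85 CPM, again without overlap (log2 fold change -1.01 ± 0.13 SE, edgeR adjusted p = 3.84e-06). NAPRT was 7.68, 7.33 and 7.50 CPM against 4.82, 4.42 and 4.71 CPM (log2 fold change -0.70 ± 0.11 SE, edgeR adjusted p = 4.30e-05). All 3 of these genes of NAD synthesis were thus low in every vehicle-treated USP18 library.

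The other 4 genes that passed changed by less, NADK by -0.20 ± 0.05, SIRT1 by 0.19 ± 0.05, PARP2 by 0.17 ± 0.05 and PARP1 by 0.08 ± 0.03 (log2 fold change ± SE). PARP1 was 250, 256 and 262 CPM in empty-vector and 271, 276 and 269 CPM in USP18 libraries, so that its groups did not overlap although they lay close together. Its call was lost without empty-vector replicate 1 or USP18 replicate 2 (highest edgeR adjusted p = 0.0847), and that of PARP2 without USP18 replicate 1 (edgeR adjusted p = 0.0533). PARG, NMNAT3 and NNMT did not pass. The log2 difference was 0.02 for PARG (95% interval -0.08 to 0.12), 0.04 for NNMT (-0.05 to 0.13) and -0.06 for NMNAT3 (-0.50 to 0.38), the widest interval of the 10.

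The groups did not overlap for 7 of the 10 genes, where 62.7% of all genes did not overlap. The 5 epithelial markers summed to 11284 to 11560 CPM in vehicle-treated empty-vector and to 7239 to 7435 CPM in USP18 libraries. This sum is mostly KRT8 and KRT18 and does not show the direction of CDH1, KRT19 or EPCAM. The 4 immune markers summed to at most 3.25 CPM, the 3 endothelial markers to at most 0.552 CPM, and the 4 fibroblast markers to 11.6 to 14.6 CPM and 7.91 to 8.23 CPM. The part of these marker differences in the results was not tested, and in bulk libraries fewer cells of a kind cannot be told apart from less RNA per cell.

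The same contrast was made under each of the 8 treatments. Since the number of engineered populations is not given, these 8 contrasts may repeat the same difference between populations and are not taken as independent. Such a difference cannot be told apart from an effect of USP18. NAMPT was lower in USP18 cells in 8 of 8, with log2 fold changes from -1.38 to -1.48, and every USP18 library of the series lay below every empty-vector library. NAPRT and NMNAT1 were lower in 8 of 8 as well, NAPRT from -0.25 to -0.85 and NMNAT1 from -0.27 to -1.08. SIRT1 was higher in 8 of 8, from 0.12 to 0.44. Some of these calls were lost under other settings or without 1 library, as given below. They were NAPRT and NMNAT1 at 5 µM CP14, NAPRT and SIRT1 at 1 µM CP14, and SIRT1 at 1 µM CP18. The upper value of SIRT1 was at 5 µM CP14, where it was 43.7, 46.8 and 48.5 CPM in empty-vector and 60.3, 64.6 and 62.2 CPM in USP18 libraries.

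PARP2 was higher in USP18 cells in 7 of 8 treatments, from 0.17 to 0.38, and the exception was 5 µM CP14 at 0.03 (95% interval -0.08 to 0.15). NADK was lower in 5 of 8, from -0.17 to -0.30, and did not pass at 2.5 or 5 µM CP14 or at 5 µM CP18. PARP1 was higher in 5 of 8, from 0.09 to 0.12, did not pass at 2.5 µM CP14 or 5 µM CP18, and was lower at 5 µM CP14 (-0.10 ± 0.03, log2 ± SE). NNMT was higher in 3 of 8, from 0.13 to 0.20, and lower at 5 µM CP14 (-0.41 ± 0.06), where PARG was lower as well (-0.23 ± 0.05). NMNAT3 passed in 0 of 8 by edgeR, and in 0 of 8 at an unadjusted p below 0.05. Some calls were gained under other settings. With all 54 libraries PARP1 was higher and PARG lower at 5 µM CP18 (edgeR adjusted p = 0.00445 and 0.0369), which made 7 of 10 in place of 5. The share of all genes given below for this contrast, 48.1%, comes from the fit of 12 libraries. The count of 7 therefore has no share beside it, and nothing is read from it. NNMT was higher at 2.5 µM CP14 with no filter (edgeR adjusted p = 0.0471) and lower at 5 µM CP2 among genes with at least 10 counts in every library (edgeR adjusted p = 0.0489).

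The number of genes that passed was 8 of 10 at 2 µM CP2 and 7 at 5 µM, 7, 5 and 7 at 1, 2.5 and 5 µM CP14, and 8, 8 and 5 at 1, 2.5 and 5 µM CP18. The share of all genes that passed was 56.7% and 52.2% for CP2, 55.5%, 53.1% and 55.9% for CP14, and 55.6%, 54.2% and 48.1% for CP18, in the same order. At 5 µM CP14 the call of NAPRT (edgeR adjusted p = 0.0494) was lost under 6 of 7 alternative settings and that of NMNAT1 (edgeR adjusted p = 0.0413) under 2 of 7, and in 5 of 6 and 4 of 6 fits without 1 library (highest edgeR adjusted p = 0.144 and 0.146). The NAPRT call held only without empty-vector replicate 2, and that of NMNAT1 without empty-vector replicate 1 or USP18 replicate 3.

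At 1 µM CP14, NAPRT was 6.57, 6.79 and 6.69 CPM in empty-vector and 3.90, 5.27 and 6.84 CPM in USP18 libraries, which overlapped. Its call (edgeR adjusted p = 0.0426) was lost under 2 of 7 settings, DESeq2 among them, and in 5 of 6 fits without 1 library, all but that without USP18 replicate 3 (highest edgeR adjusted p = 0.274). The call of SIRT1 at this dose (edgeR adjusted p = 0.0329) was lost under 1 of 7 settings and in 4 of 6 such fits, without any 1 of the empty-vector libraries or without USP18 replicate 2 (highest edgeR adjusted p = 0.157). DESeq2 called 5 genes in this contrast against 7 by edgeR.

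PARP1 at 5 µM CP14 lost its call in 2 of 6 fits, without empty-vector replicate 3 or USP18 replicate 2, and NNMT at 1 µM CP18 in 2 of 6, without empty-vector replicate 3 or USP18 replicate 1 (highest edgeR adjusted p = 0.0746 and 0.0690). A call was lost in 1 of 6 fits for NADK at 5 µM CP2 (without empty-vector replicate 3), PARP2 at 2.5 µM CP14 (USP18 replicate 2) and 5 µM CP18 (empty-vector replicate 1), SIRT1 at 1 µM CP18 (USP18 replicate 2) and NNMT at 2.5 µM CP18 (USP18 replicate 1), with edgeR adjusted p = 0.0537, 0.0521, 0.0712, 0.0512 and 0.0617.

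**Figure D2:**
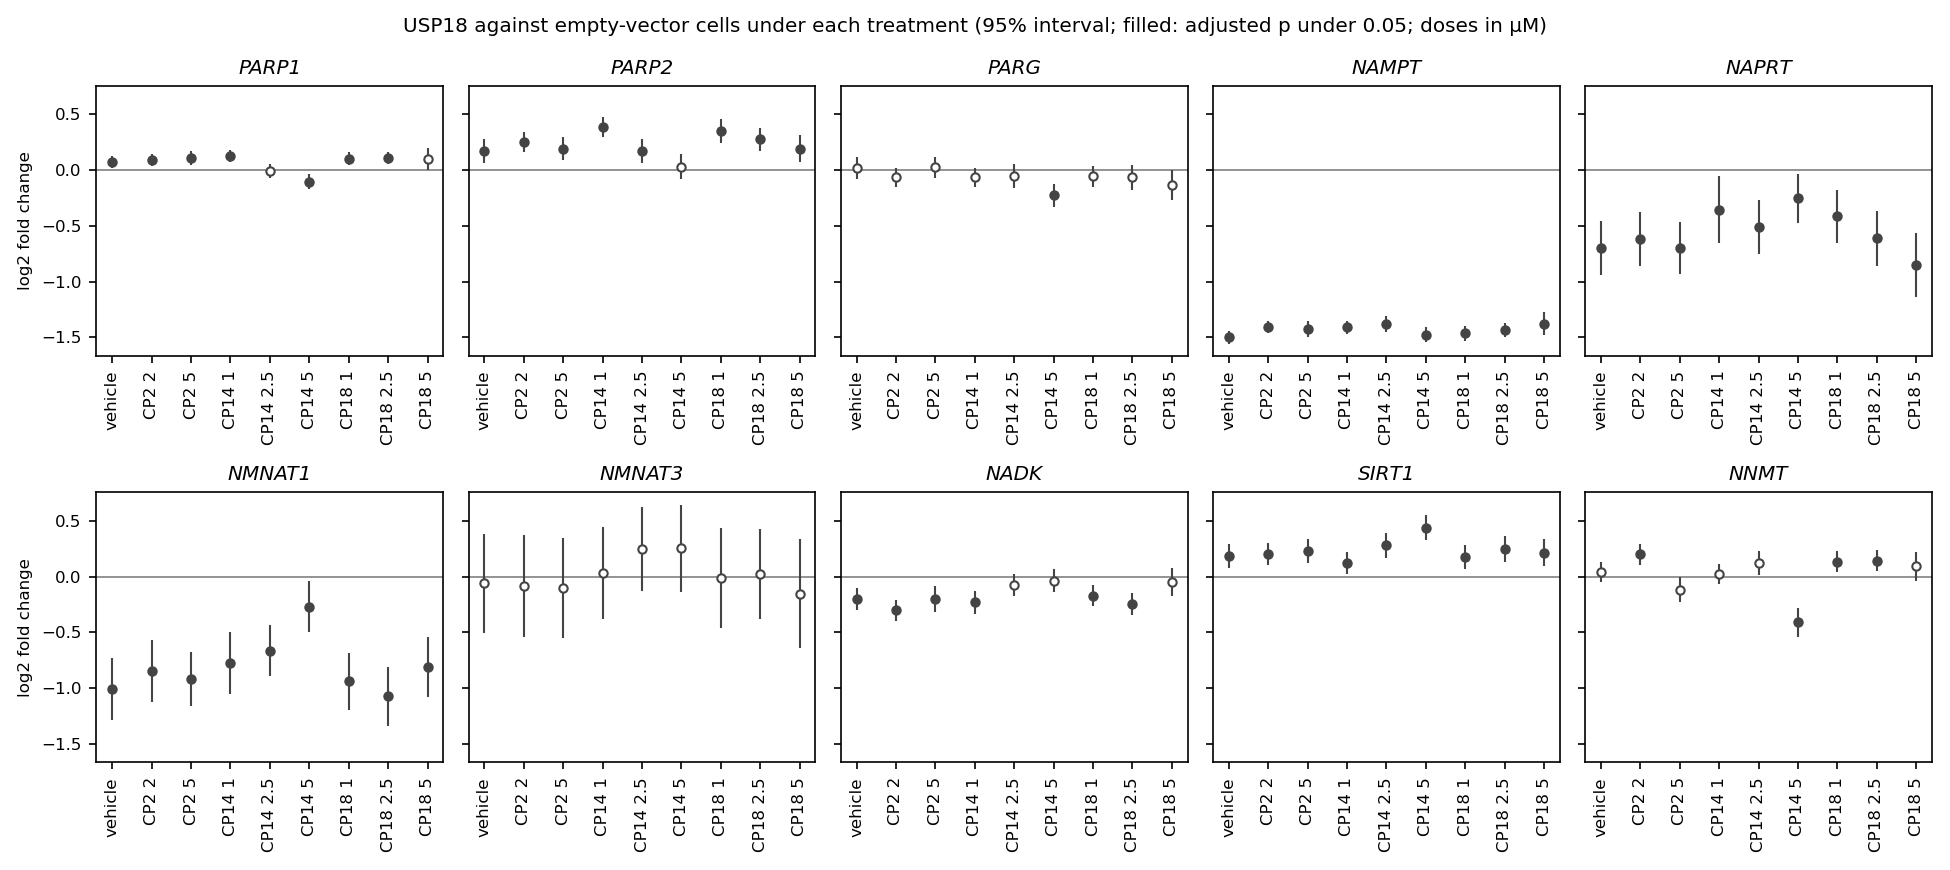
Log2 fold change of USP18 against empty-vector cells for each gene under vehicle and the 8 treatments (x axis, doses in µM), with 95% intervals and filled points where the adjusted p was below 0.05. NAMPT stays between -1.38 and -1.50 throughout, while NMNAT1 goes from -1.01 under vehicle to -0.27 at 5 µM CP14.

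The next comparison asked what each compound did against vehicle within a vector. All such contrasts share the vehicle libraries, so their values are set side by side and are not independent. At 5 µM, CP14 lowered NNMT and PARP1 and raised NAMPT and NMNAT1 in both cell populations. In empty-vector cells 5 of 10 genes passed, 2 higher and 3 lower, where 63.2% of all genes passed (31% higher, 32.1% lower). In USP18 cells 7 of 10 passed, 3 higher and 4 lower, where 68.6% of all genes passed (34.4% higher, 34.3% lower). The median log2 fold change over the 10 genes was -0.05 and 0.07, against 0.01 and 0.01 over all genes.

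NNMT, which takes nicotinamide out of the NAD cycle, changed most. It was 59.7, 58.5 and 57.3 CPM under vehicle and 23.6, 21.7 and 22.2 CPM at 5 µM CP14 in empty-vector libraries. In USP18 libraries it was 60.2, 63.6 and 57.9 CPM and then 16.6, 16.5 and 17.3 CPM. No treated library overlapped a vehicle library, with log2 fold changes of -1.38 ± 0.05 and -1.84 ± 0.06 (SE, edgeR adjusted p = 3.91e-15 and 3.75e-17), which is 2.60-fold and 3.58-fold lower. In the other groups NNMT stayed between 47.4 and 61.7 CPM in empty-vector and between 48.2 and 66.6 CPM in USP18 libraries.

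Among the enzymes of poly(ADP-ribose), PARP1 in empty-vector cells went from 250, 256 and 262 CPM to 189, 194 and 200 CPM. In USP18 cells it went from 271, 276 and 269 CPM to 184, 177 and 178 CPM. The groups were apart in both populations, with log2 fold changes of -0.40 ± 0.03 and -0.59 ± 0.03 (SE, edgeR adjusted p = 9.73e-10 and 1.15e-12). PARG, which trims the chains, fell in USP18 cells from 52.3, 53.6 and 51.3 CPM to 38.4, 41.2 and 41.6 CPM (-0.37 ± 0.05 SE, edgeR adjusted p = 1.06e-06). In empty-vector cells PARG gave -0.11 (95% interval -0.21 to -0.01, edgeR adjusted p = 0.0527). PARP2 fell slightly in USP18 cells (-0.17 ± 0.05 SE, edgeR adjusted p = 0.00868), a call lost without vehicle replicate 1 or treated replicate 2 (highest edgeR adjusted p = 0.0896), and gave -0.02 (95% interval -0.14 to 0.09) in empty-vector cells.

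Among the enzymes of NAD synthesis, NAMPT rose in empty-vector cells from 260, 258 and 255 CPM to 402, 381 and 397 CPM. In USP18 cells it rose from 93.1, 91.3 and 90.9 CPM to 137, 144 and 140 CPM. Every treated library lay above every vehicle library of its vector, and the log2 fold changes were 0.61 ± 0.03 and 0.62 ± 0.04 (SE, edgeR adjusted p = 3.45e-13 and 1.12e-12). The treated USP18 libraries remained below the vehicle-treated empty-vector libraries. NMNAT1 rose from 7.96, 8.12 and 8.14 CPM to 10.2, 11.3 and 12.0 CPM in empty-vector cells. In USP18 cells it rose from 3.41, 4.86 and 3.85 CPM to 9.23, 8.61 and 9.90 CPM, above the vehicle-treated empty-vector libraries. Its log2 fold changes were 0.47 ± 0.11 and 1.20 ± 0.12 (SE, edgeR adjusted p = 0.000798 and 1.99e-08), with no overlap. NAPRT rose in USP18 cells from 4.82, 4.42 and 4.71 CPM to 6.35, 5.84 and 5.97 CPM (0.39 ± 0.11 SE, edgeR adjusted p = 0.00416) and gave -0.05 (95% interval -0.26 to 0.16) in empty-vector cells.

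The deacetylase SIRT1 fell in empty-vector cells from 53.8, 54.9 and 51.5 CPM to 43.7, 46.8 and 48.5 CPM (-0.20 ± 0.05 SE, edgeR adjusted p = 0.00255) and gave 0.04 (95% interval -0.07 to 0.15) in USP18 cells. NADK gave -0.06 (-0.16 to 0.05) and 0.10 (-0.01 to 0.20). NMNAT3, the mitochondrial adenylyltransferase, gave 0.09 ± 0.19 and 0.39 ± 0.19 (SE, edgeR adjusted p = 0.717 and 0.0712), and neither gene passed in either population. Among genes with at least 10 counts in every library both passed in USP18 cells (edgeR adjusted p = 0.0465 for NMNAT3 and 0.0485 for NADK), which made 9 of 10 in place of 7. Under that filter the share of all genes that passed was 1.08 times the 68.6% given above. At this dose 6 and 9 of the 10 genes had groups that did not overlap, where 66.9% and 71.2% of all genes did not. The epithelial markers summed to 4332 to 4592 CPM in treated empty-vector and 2995 to 3193 CPM in treated USP18 libraries, below their vehicle levels, and the immune, endothelial and fibroblast markers to at most 1.24, 0.204 and 6.71 CPM. Here too the epithelial sum is mostly KRT8 and KRT18. The part of these markers in the results was not tested.

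**Figure D3:**
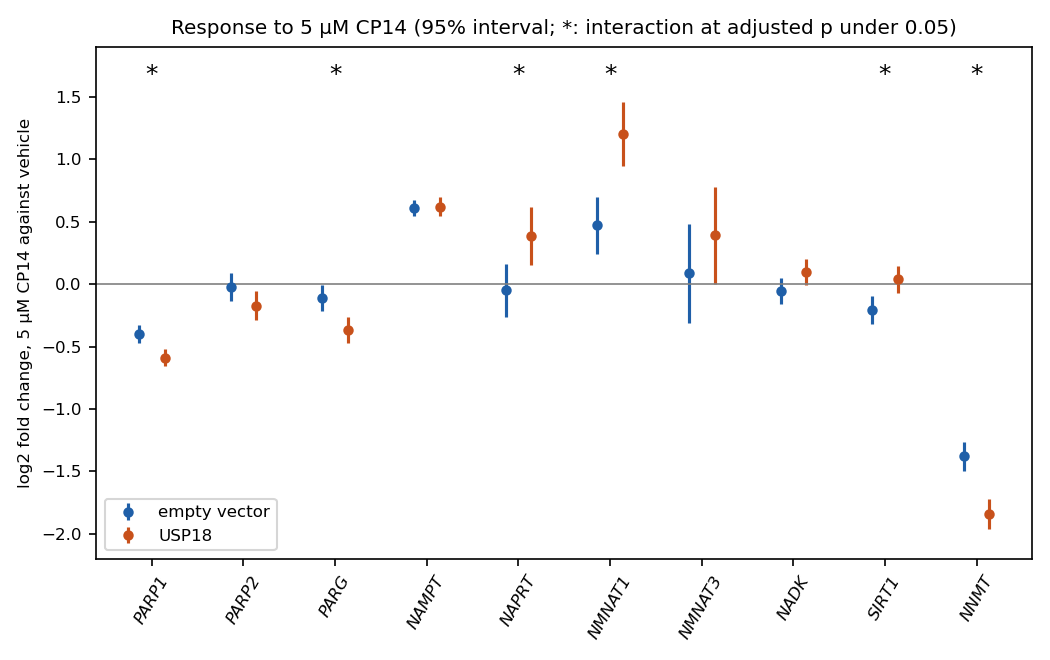
Log2 fold change at 5 µM CP14 against vehicle for each gene in empty-vector (blue) and USP18 cells (orange), with 95% intervals and a star where the interaction had an adjusted p below 0.05. NAMPT lies at 0.61 and 0.62, NMNAT1 at 0.47 and 1.20, and NNMT at -1.38 and -1.84.

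Whether the response to 5 µM CP14 differed between vectors was tested by the interaction term, which passed for 6 of 10 genes, where 27.7% of all genes passed. For NMNAT1 the log2 rise was larger in USP18 than in empty-vector cells, with a difference of 0.73 ± 0.17 (SE, edgeR adjusted p = 0.00217). NNMT (-0.46 ± 0.08 SE, edgeR adjusted p = 0.000173), PARG (-0.26 ± 0.07 SE, edgeR adjusted p = 0.00818) and PARP1 (-0.19 ± 0.05 SE, edgeR adjusted p = 0.00446) had lower log2 fold changes in USP18 cells. NAPRT (0.44 ± 0.15 SE, edgeR adjusted p = 0.0355) and SIRT1 (0.24 ± 0.08 SE, edgeR adjusted p = 0.0198) had higher ones. The NAPRT interaction was lost under 3 of 6 alternative settings and in 8 of 12 fits that left out 1 library, and that of SIRT1 in 2 of 12, without vehicle USP18 replicate 3 or treated empty-vector replicate 1 (highest edgeR adjusted p = 0.0658). NAMPT gave 0.01 (95% interval -0.09 to 0.11). PARP2, NMNAT3 and NADK did not pass either, at -0.15 (-0.31 to 0.01), 0.31 (-0.25 to 0.86) and 0.15 (0.01 to 0.30).

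At 2.5 µM CP14, 2 of 10 genes passed in empty-vector cells, where 15.1% of all genes passed, and 3 of 10 in USP18 cells, where 32.7% passed. NMNAT1 rose in USP18 cells from 3.41, 4.86 and 3.85 CPM to 6.15, 6.12 and 6.07 CPM, with no overlap (0.60 ± 0.12 SE, edgeR adjusted p = 0.000852), and this call was lost under 0 of 7 alternative settings and in 0 of 6 fits without 1 library. In empty-vector cells NMNAT1 gave 0.26 (95% interval 0.04 to 0.48, edgeR adjusted p = 0.103), and its interaction was 0.34 (0.00 to 0.68, edgeR adjusted p = 0.226). SIRT1 fell in empty-vector cells (-0.20 ± 0.05 SE, edgeR adjusted p = 0.0147), a call lost in 4 of 6 fits without 1 library. PARP1 in empty-vector cells (0.09 ± 0.03 SE, edgeR adjusted p = 0.0495) lost its call under 3 of 7 settings, NAMPT in USP18 cells (0.10 ± 0.04 SE, edgeR adjusted p = 0.0468) under 6 of 7, and NMNAT3 in USP18 cells (0.49 ± 0.18 SE, edgeR adjusted p = 0.0460) under 4 of 7, the replicate block among them for the latter 2. NNMT was added in empty-vector cells with the 2 groups alone (edgeR adjusted p = 0.0297). NNMT, which fell most at 5 µM, gave -0.15 (95% interval -0.26 to -0.04) in empty-vector and -0.07 (-0.18 to 0.04) in USP18 cells.

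At 1 µM CP14, 1 of 10 genes passed in empty-vector cells, where 0.861% of all genes passed, and 2 of 10 in USP18 cells, where 15.3% passed. PARP2 in USP18 cells went from 50.4, 48.3 and 45.6 CPM to 58.8, 57.7 and 55.9 CPM, without overlap and with its highest group mean of the 18 (0.26 ± 0.04 SE, edgeR adjusted p = 0.000437). Its interaction of 0.21 ± 0.06 (SE, edgeR adjusted p = 0.0421) passed, where 5.79% of all genes passed, but was lost under 4 of 6 alternative settings and in 10 of 12 fits without 1 library. SIRT1 fell in USP18 cells (-0.20 ± 0.05 SE, edgeR adjusted p = 0.00572). NAMPT fell in empty-vector cells (-0.11 ± 0.03 SE, edgeR adjusted p = 0.0435), a call lost in 6 of 6 fits without 1 library and under 4 of 7 settings (no filter, the 2 groups alone, all 54 libraries and the replicate block), so that 0 genes passed in each of these.

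CP2 and CP18 changed few of the genes. At 2 µM CP2, 0 of 10 passed in empty-vector and 0 of 10 in USP18 cells by edgeR, where 1.84% and 1.13% of all genes passed. At an unadjusted p below 0.05 these counts were 1 and 2, and DESeq2 called 0 in both. At 5 µM CP2, 1 gene passed in empty-vector cells, where 12.1% of all genes passed, and 3 in USP18 cells, where 19% passed. SIRT1 fell from 53.8, 54.9 and 51.5 CPM to 46.3, 43.0 and 41.8 CPM in empty-vector cells. In USP18 cells it fell from 59.6, 65.6 and 58.1 CPM to 53.5, 51.6 and 52.8 CPM. No treated library overlapped its vehicle libraries, with log2 fold changes of -0.26 ± 0.05 and -0.23 ± 0.05 (SE, edgeR adjusted p = 0.00234 and 0.00384).

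NNMT fell at 5 µM CP2 in USP18 cells, to 48.2, 48.7 and 51.0 CPM (-0.31 ± 0.05 SE, edgeR adjusted p = 0.000312), and gave -0.15 (95% interval -0.26 to -0.04, edgeR adjusted p = 0.0708) in empty-vector cells. The difference between these responses did not pass (-0.16, 95% interval -0.31 to -0.01, edgeR adjusted p = 0.400). NAPRT was added at this dose in empty-vector cells among genes with at least 10 counts in every library (edgeR adjusted p = 0.0498). PARP1 rose slightly in USP18 cells (0.10 ± 0.03 SE, edgeR adjusted p = 0.0248), a call lost in 6 of 6 fits without 1 library.

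For CP18 in empty-vector cells, 0 of 10 genes passed at 1 µM and 0 at 2.5 µM by edgeR, where 0.368% and 5.96% of all genes passed. At an unadjusted p below 0.05 these counts were 0 and 1, and DESeq2 called 0 at both doses, whereas with no filter SIRT1 passed at 2.5 µM (edgeR adjusted p = 0.0265). In USP18 cells 1 of 10 passed at 1 µM, where 15.7% of all genes passed, and 2 of 10 at 2.5 µM, where 14.2% passed. PARP2 rose at 1 µM (0.17 ± 0.05 SE, edgeR adjusted p = 0.0272) and at 2.5 µM (0.16 ± 0.05 SE, edgeR adjusted p = 0.0281), calls lost in 3 of 6 and 3 of 6 fits without 1 library. PARP1 rose at 2.5 µM (0.08 ± 0.03 SE, edgeR adjusted p = 0.0344), a call lost in 6 of 6 such fits, with no filter and with all 54 libraries. DESeq2 did not call PARP2 at 2.5 µM, and each of these 3 settings left 1 gene.

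At 5 µM CP18, 1 gene passed in empty-vector and 1 in USP18 cells, where 8.4% and 10.7% of all genes passed, and in each it was SIRT1. SIRT1 fell to 43.3, 48.3 and 44.0 CPM in empty-vector and to 52.2, 51.7 and 55.0 CPM in USP18 libraries, below all vehicle libraries of each vector (-0.23 ± 0.06 and -0.21 ± 0.06 SE, edgeR adjusted p = 0.0213 and 0.0222). These calls were lost in 3 of 6 and 4 of 6 fits without 1 library. The counts changed with the setting. With the 2 groups alone 0 genes passed in empty-vector and 4 in USP18 cells, where PARP1, PARP2 and NNMT were added (edgeR adjusted p = 0.00408, 0.0400 and 0.0417). With all 54 libraries 3 and 3 passed, PARP1 and NNMT being added in empty-vector and PARP1 and PARP2 in USP18 cells, and DESeq2 and the fit with no filter gave 2 and 2 in empty-vector cells with NNMT. In empty-vector cells at this dose replicate 3 stood apart, with PARP1 at 248 CPM against 281 and 288 CPM and NAPRT at 11.3 CPM against 8.67 and 8.28 CPM. Over the 16 contrasts against vehicle, SIRT1 had 7 calls, all lower and spread over the 3 compounds. These contrasts reuse the vehicle libraries of each vector, so the calls are not independent and no agreement between compounds is read from them. Among the empty-vector groups the vehicle mean of SIRT1, 53.4 CPM, was the highest.

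Under CP2, CP18 and 2.5 µM CP14 the interaction with the vector passed for 0 of the 10 genes by edgeR. The share of all genes was 0.0569% and 0.92% for CP2 at 2 and 5 µM, 8% for 2.5 µM CP14, and 7.19%, 0.197% and 0.268% for CP18 at 1, 2.5 and 5 µM. At an unadjusted p below 0.05 the counts were 2, 1, 2, 1, 0 and 0 in the same order, and DESeq2 called 0 in each.

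**Figure D4:**
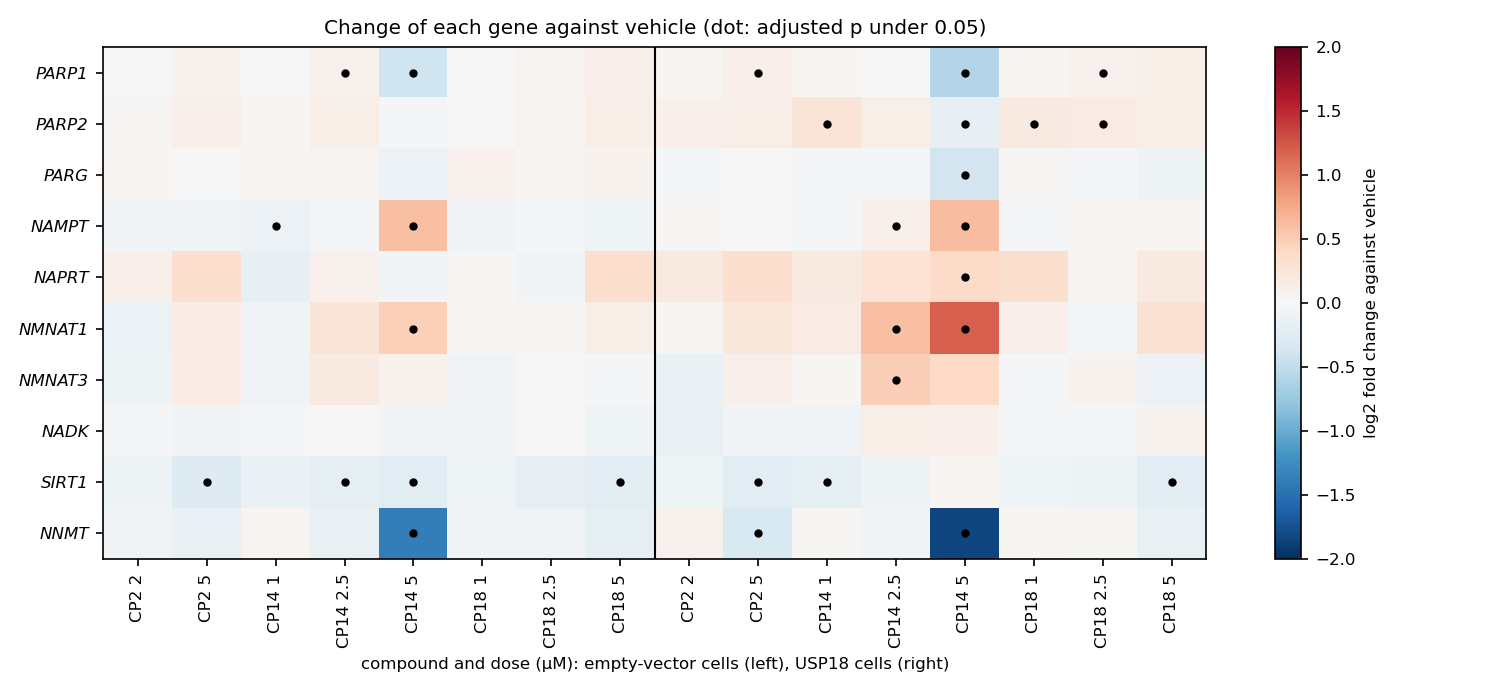
Log2 fold change against vehicle of each gene (rows) as color from -2 to 2 for the 8 treatments (columns, doses in µM), with empty-vector cells on the left, USP18 cells on the right and a dot where the adjusted p was below 0.05. The 5 µM CP14 values stand out, with NNMT at -1.38 and -1.84 and NMNAT1 at 0.47 and 1.20.

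Compounds were compared with each other at matched doses, in 5 pairs and in both cell populations, which gave 10 contrasts for each gene, with p-values adjusted over all genes within a contrast. The sources used here do not match the codes to the compounds that the study names, so no structural difference is given. At 5 µM, CP14 against CP18 passed for 6 of 10 genes in empty-vector and 8 of 10 in USP18 cells, where 57.5% and 64.9% of all genes passed. NNMT was lower with CP14 (-1.19 ± 0.07 and -1.69 ± 0.07 SE, edgeR adjusted p = 2.41e-11 and 9.00e-14), and so was PARP1 (-0.49 ± 0.05 and -0.70 ± 0.05 SE). NAMPT was higher with CP14 (0.69 ± 0.05 and 0.59 ± 0.05 SE), and so was NMNAT1 (0.36 ± 0.11 and 0.90 ± 0.12 SE). The call of NMNAT3 in USP18 cells (0.52 ± 0.22 SE, edgeR adjusted p = 0.0490) was lost under 4 of 7 settings, namely relative log expression scaling, no filter, DESeq2 and the replicate block, and in 6 of 6 fits without 1 library, which left 7 of 10 under each of those settings. In empty-vector cells PARG (-0.17 ± 0.07 SE, edgeR adjusted p = 0.0302) was lost with the 2 groups alone and in 4 of 6 fits without 1 library, all but those without CP14 replicate 2 or CP18 replicate 3, NAPRT (-0.38 ± 0.14 SE, edgeR adjusted p = 0.0229) in 2 of 6, without CP14 replicate 2 or CP18 replicate 3, and NMNAT1 in 1 of 6, without CP18 replicate 2. With all 54 libraries PARP2 was added (edgeR adjusted p = 0.0194). NADK did not pass in either population, at 0.03 (95% interval -0.10 to 0.16) and 0.04 (-0.09 to 0.17).

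CP2 against CP14 at 5 µM passed for 5 and 8 of 10 genes, where 59.4% and 67.5% of all genes passed. With CP2, NNMT was higher (1.23 ± 0.06 and 1.55 ± 0.06 SE), PARP1 was higher (0.46 ± 0.04 and 0.70 ± 0.04 SE) and NAMPT was lower (-0.67 ± 0.04 and -0.59 ± 0.04 SE). The call of NADK in USP18 cells (-0.14 ± 0.06 SE, edgeR adjusted p = 0.0426) was lost with no filter and in 3 of 6 fits, without CP2 replicate 2 or 3 or CP14 replicate 1, and PARP2 was added in empty-vector cells with all 54 libraries (edgeR adjusted p = 0.0496). In empty-vector cells NNMT was 49.6, 50.9 and 55.9 CPM with CP2, 47.4, 49.4 and 56.3 CPM with CP18 and 23.6, 21.7 and 22.2 CPM with CP14, so that CP14 lay apart from both.

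CP2 against CP18 at 5 µM passed for 0 and 0 of 10 genes by edgeR, where 0.0257% and 0.00641% of all genes passed. At an unadjusted p below 0.05 these counts were 0 and 1, and DESeq2 called 0 in both. The 95% interval of the log2 difference was -0.13 to 0.07 and -0.12 to 0.08 for PARP1, -0.08 to 0.13 and -0.14 to 0.09 for NAMPT, and -0.11 to 0.18 and -0.31 to -0.02 for NNMT. For NMNAT3 it was -0.36 to 0.69 and -0.31 to 0.74.

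At 2.5 µM, CP14 against CP18 passed for 0 genes in empty-vector cells by edgeR and for 2 in USP18 cells, where 1.8% and 28.2% of all genes passed. In USP18 cells NMNAT1 was 6.15, 6.12 and 6.07 CPM with CP14 and 4.06, 4.12 and 3.72 CPM with CP18, without overlap (0.64 ± 0.11 SE, edgeR adjusted p = 0.000249). NADK was higher with CP14 (0.15 ± 0.05 SE, edgeR adjusted p = 0.0206), a call lost in 4 of 6 fits without 1 library and with DESeq2, which called 1 gene. In empty-vector cells NMNAT1 gave 0.23 (95% interval 0.03 to 0.43), and 1 gene passed at an unadjusted p below 0.05 and 0 by DESeq2.

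At 1 µM, CP14 against CP18 passed for 0 genes in empty-vector and 0 in USP18 cells by edgeR, where 0.0191% and 0.0191% of all genes passed. At an unadjusted p below 0.05 these counts were 1 and 1, and DESeq2 called 0 in both. For PARP1 the 95% intervals were -0.08 to 0.03 and -0.06 to 0.05.

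Other genes of the pathway were taken as 5 lists of 55 genes, of which 47 had enough counts to be tested. Between the vectors under vehicle, 10 were higher and 13 lower in USP18 cells, and 24 did not pass. Without PARP8, for the reason given below, 9 of 46 were higher and 13 lower. Of all genes tested, 29% were higher and 28.7% lower, so that the share of pathway genes that passed was not above that of all genes (57.6%). Of 13 tested other PARP family enzymes, 7 were higher and 2 lower (median log2 fold change 0.26, against -0.01 over all genes). TIPARP, a mono-ADP-ribosyltransferase, was 26.4 ± 1.6 CPM in empty-vector and 43.2 ± 1.7 CPM in USP18 cells (SD, n = 3). PARP8 had enough counts only through the USP18 libraries, so that it had to differ to be tested, and without it 6 of 12 were higher and 2 lower (median 0.24). As a description, it had 2 to 3 counts per vehicle-treated empty-vector library, 7 in all, against 65 in the USP18 libraries, a depth-adjusted ratio of 9.90 (95% interval 4.54 to 25.6, counting error only).

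Of 10 other NAD consumers and nicotinamide clearance genes, 6 were lower and 0 higher in USP18 cells (median -0.37, against -0.01 over all genes, of which 28.7% were lower and 29% higher). They included the NAD glycohydrolases CD38 (25.0 ± 3.2 CPM in empty-vector against 5.78 ± 0.75 CPM in USP18 cells) and SARM1 (25.4 ± 1.6 against 7.15 ± 0.49 CPM) and the aldehyde oxidase AOX1 (2.72 ± 0.71 against 0.656 ± 0.13 CPM). Of 9 genes for ADP-ribose removal and PARP1 partners, 1 was higher, the ADP-ribosylarginine hydrolase ADPRH (3.32 ± 0.23 against 6.28 ± 1.1 CPM), and 1 lower. Of 9 tested genes of other NAD synthesis and transport, 1 was higher and 4 lower, and of 6 genes around NADP, 1 was higher and 0 lower. The share of these last 3 lists that passed was in no case above the 57.6% of all genes, of which 29% were higher and 28.7% lower. Nothing is read from these counts.

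At 5 µM CP14, 20 of 47 genes were higher and 12 lower in empty-vector cells, and 21 were higher and 11 lower in USP18 cells. Without PARP8, 19 of 46 were higher and 12 lower in empty-vector cells. Of all genes, 63.2% and 68.6% passed, so that the share of pathway genes that passed was near the background, with 31% and 34.4% higher and 32.1% and 34.3% lower. Of the other PARP family enzymes 9 and 10 of 13 were higher and 1 lower in each population (medians 0.41 and 0.41, against 0.01 over all genes). TIPARP reached 82.1 ± 3.3 CPM in empty-vector and 126 ± 3.5 CPM in USP18 cells (log2 fold changes 1.64 ± 0.05 and 1.55 ± 0.05 SE). Without PARP8, which was low under vehicle as above, 8 of 12 were higher and 1 lower in empty-vector cells (median 0.33). PARP8 itself had 55 counts in the treated empty-vector libraries, a ratio to vehicle of 9.20 (95% interval 4.18 to 23.9).

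In other NAD synthesis and transport, 3 and 5 of 9 genes were higher and 2 lower in each population, where 63.2% and 68.6% of all genes passed in either direction. QPRT, which makes the NAD precursor from tryptophan breakdown, fell from 19.9 ± 2.5 to 6.11 ± 0.71 CPM in empty-vector and from 15.8 ± 1.5 to 6.47 ± 0.45 CPM in USP18 cells. KYNU, the kynureninase of the same route, fell in USP18 cells from 396 ± 2.1 to 221 ± 8.5 CPM. NMNAT2, the Golgi-associated adenylyltransferase, rose in empty-vector cells from 8.45 ± 1.3 to 20.3 ± 1.2 CPM, and NMRK1, a nicotinamide riboside kinase, rose in USP18 cells from 1.49 ± 0.26 to 5.38 ± 1.1 CPM.

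Of 9 genes for ADP-ribose removal and PARP1 partners, 2 were higher and 4 lower in each population, where 63.2% and 68.6% of all genes passed. HPF1, which directs PARP1 to serine residues, fell in USP18 cells from 24.4 ± 0.91 to 14.5 ± 0.27 CPM. Of 10 other NAD consumers and clearance genes, 5 and 4 were higher and 3 and 2 lower, against the same shares. CD38 fell in empty-vector cells to 12.9 ± 1.8 CPM and SARM1 to 14.9 ± 2.8 CPM, and AOX1 rose in USP18 cells to 3.71 ± 0.81 CPM. Of 6 genes around NADP, 1 and 0 were higher and 2 lower in each population. Nothing particular to a list is read from these counts.

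**Figure D5:**
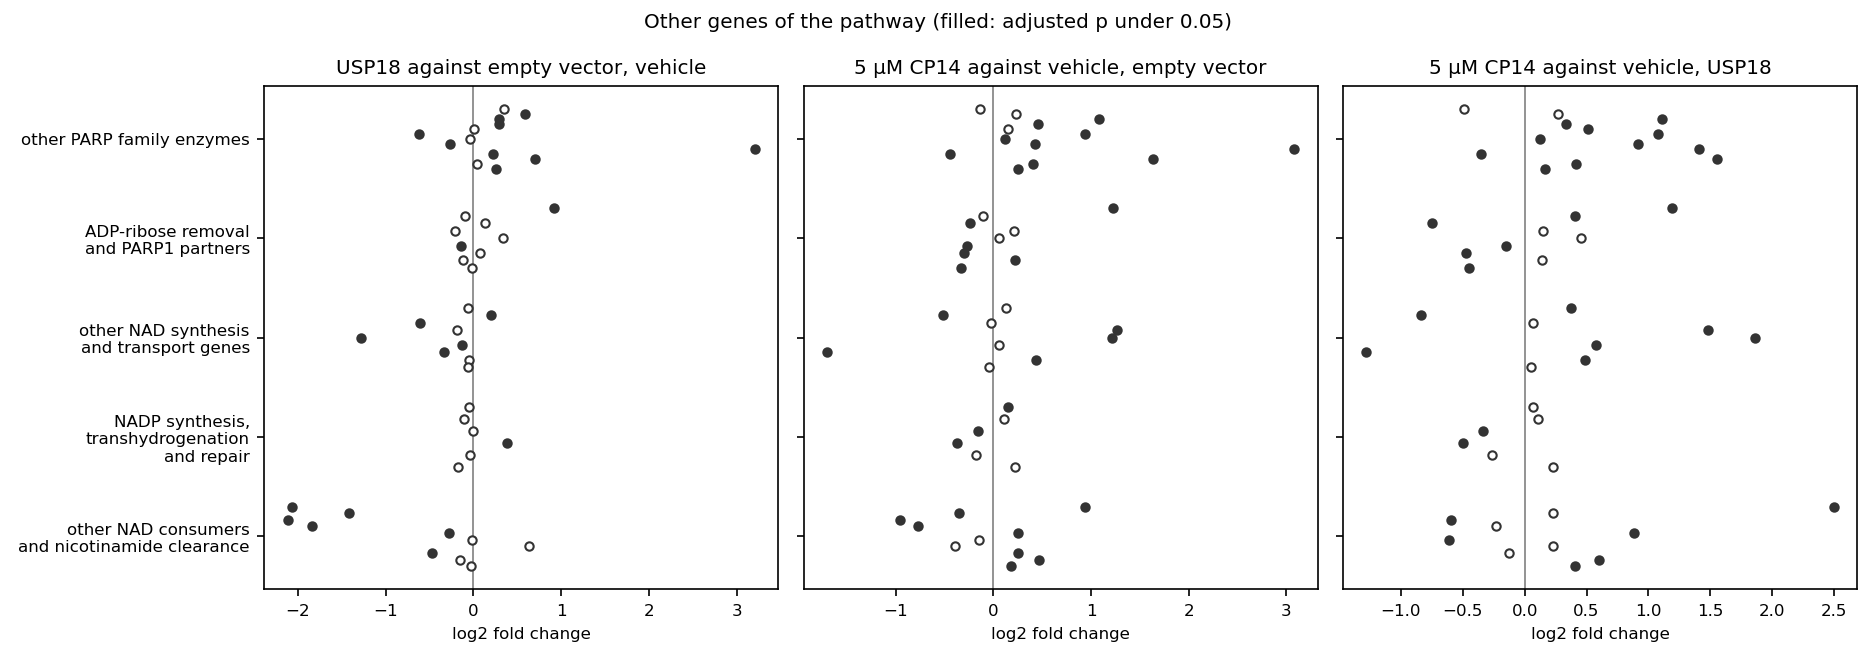
Log2 fold change of the tested genes of the 5 pathway lists, for USP18 against empty-vector cells under vehicle and for 5 µM CP14 in each population, with 1 point per gene, filled where the adjusted p was below 0.05, and x axes that differ in range. The point farthest right among the PARP enzymes in the left and middle panels is PARP8, whose fitted value depends on the prior count. At 5 µM CP14, 8 of 12 PARP enzymes without PARP8 were higher in empty-vector and 10 of 13 with it in USP18 cells, where 31% and 34.4% of all genes were.

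The order of the 18 group means was also examined for each gene. NAMPT ranged 4.35-fold, from 393 CPM at 5 µM CP14 in empty-vector cells to 90.3 CPM at 1 µM CP14 in USP18 cells. In that order 3 of 17 neighbouring pairs had libraries that did not overlap, and they lay after the highest group, between the empty-vector and the USP18 groups, and after 5 µM CP14 in USP18 cells. NNMT ranged 3.81-fold, NMNAT1 2.82-fold, NAPRT 2.02-fold and PARP1 1.64-fold, with 2, 3, 2 and 4 neighbouring pairs apart. SIRT1 ranged 1.43-fold, PARP2 1.37-fold, PARG 1.34-fold and NADK 1.27-fold, with at most 2 pairs apart. NMNAT3 ranged 1.54-fold with 0 of 17 neighbouring pairs apart, although groups further apart in the order did separate: its 3 libraries at 2.5 µM CP14 in USP18 cells all lay above those of vehicle-treated USP18 cells. The neighbouring pairs were set by sorting the same means, and they were not counted over all genes. These counts of pairs therefore have no share beside them, and nothing is read from them.

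By Pearson's r of the 18 group means among 11325 genes with a mean of at least 5 CPM, the genes most like PARP1 were HPRT1 (r = 0.991), FAM98B (r = 0.990) and USP1 (r = 0.989). Those most like NAMPT were COL5A1 (r = 0.988), IGFN1 (r = 0.986) and SCN9A (r = 0.986), and those most like NNMT were FGB (r = 0.990), PDGFRL (r = 0.989) and NTS (r = 0.988). The groups share cell populations, and the values describe 18 means that include those at 5 µM CP14.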

How the data were processed

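RNA from 54 A549 libraries was sequenced. The deposited values were expected counts per gene estimated by RSEM, and the authors gave no normalized values in this table. The submitters' processing notes name RSEM 1.3.1, STAR 2.7.0f, cutadapt 1.18 and bcl2fastq. Sources differ on library preparation: selection of polyadenylated RNA in the labels, depletion of rRNA in the methods. The methods also name another version of RSEM and, for its use, a mouse GENCODE annotation, although the gene identifiers are human. Reads shared between loci are split by RSEM, so estimated counts need not be whole.

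Counts were rounded and tested with the quasi-likelihood test of edgeR 4.0.16 (R 4.3.3) after TMM scaling and edgeR's expression filter (at least 10 counts, and 15 over all libraries). Each treatment was fitted with vehicle in both vectors (12 libraries), the vectors under vehicle in 6 libraries, and compound pairs in 12. P-values were adjusted by Benjamini-Hochberg over all genes of a contrast, and SEs and 95% intervals came from the F statistic. The scripts were tested on simulated data. Alternatives were scaling by relative log expression, no filter, 10 counts in every library, DESeq2 1.42.0, the 2 groups alone, all 54 libraries, a replicate block, and leaving out each library. The members, lists and tests were chosen with earlier results of these data known. Named were the 10 members, USP18, up to 3 rises and 3 falls with the largest change among pathway genes that passed in each of 3 contrasts, and the 3 genes most like PARP1, NAMPT and NNMT. Replicates differed by more than counting noise, with a chi-square per gene of 1.80 to 11.1 over 54 pairs.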

Additional observations from a re-analysis of the deposited data

Results flagged for a closer look

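In 7 cases the response of a gene to CP14 passed the interaction test between USP18 and empty-vector cells (log2, USP18 minus empty vector, edgeR adjusted p). At 5 µM these were NMNAT1 (0.73, adjusted p = 0.00217), NAPRT (0.44, adjusted p = 0.0355), SIRT1 (0.24, adjusted p = 0.0198), PARP1 (-0.19, adjusted p = 0.00446), PARG (-0.26, adjusted p = 0.00818) and NNMT (-0.46, adjusted p = 0.000173). At 1 µM it was PARP2 (0.21, adjusted p = 0.0421). The share of all genes that passed was 27.7% at 5 µM and 5.79% at 1 µM. The PARP2 value was lost under 4 of 6 alternative settings and in 10 of 12 fits without 1 library, that of NAPRT under 3 of 6 and in 8 of 12, and that of SIRT1 in 2 of 12. DESeq2 called 5 of the 10 genes at 5 µM and 0 at 1 µM.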

How the results depend on the processing

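Of 127 values of the 10 genes that passed, 0 reversed. The number that no longer passed was 3 with relative log expression scaling, 11 with no filter, 1 with 10 counts in every library, 12 with DESeq2, 7 of 113 with the 2 groups alone and 6 with all 54 libraries. Calls gained were 20 in all, 3 with no filter, 4 with 10 counts in every library, 1 with DESeq2, 4 with the 2 groups alone and 8 with all 54 libraries. DESeq2 gave no adjusted p for some tests of low genes. Leaving out 1 library lost 124 of 804. Over those fits the tests that passed ranged from 6 to 12 against vehicle in empty-vector cells (10 of 80 with all libraries), from 12 to 20 in USP18 cells (19 of 80) and from 4 to 7 for the interaction (7 of 80). The lowest values were without vehicle-treated empty-vector replicate 1 or 2, USP18 replicate 2 and USP18 replicate 3, and the cause was not tested. They ranged from 6 to 7 between vectors under vehicle, from 52 to 57 under treatment and from 27 to 29 for compound pairs. Among 292 shares of all genes under alternatives, 73 lay more than 1.5 times from the value given, 35 of them with no filter. The ratio to the value given ran from 0 to 61.5. It was 0 with all 54 libraries for 1 µM CP18 against vehicle in empty-vector cells. With the 2 groups alone it was 0 for CP14 against CP18 at 1 µM in USP18 cells. With no filter it ran from 0.552, for the 5 µM CP14 interaction, to 61.5. The highest ratio was 58.5 with the 2 groups alone, 18 with DESeq2 and 13.0 with all 54 libraries. Counts of the 10 genes under an alternative are therefore not read against the shares printed. Low counts limit NMNAT3, NMNAT1 and NAPRT.

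Replicate numbers are shared between groups, but libraries with the same number did not deviate together (correlations from -0.136 to 0.136 over 459 pairs, 2 of them above 0.1). With the replicate block 121 of 127 values still passed and 6 did not, and 7 of 10 genes passed between the vectors under vehicle.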
